A study of Mus musculus with 8 samples.

Results

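The 10 genes described here handle iron and haem in the liver of aged obese female mice: the hepcidin genes Hamp and Hamp2, the transferrin receptors Tfr2 and Tfrc, transferrin (Trf), the ferritin chains Fth1 and Ftl1, the iron exporter ferroportin (Slc40a1), haptoglobin (Hp) and hemopexin (Hpx). They were chosen by name for their function, with earlier results of these data known and with no threshold on their values, and all 10 were found among the 56884 genes of the count tables and among the 12412 genes with enough counts to be tested. Liver poly(A) RNA was sequenced from 8 mice, 3 in the DIO group and 5 in the DIO + DHA group, and each mouse gave 1 library. All mice were C57BL/6J females of 18 months that had first been made obese over 4 months by a diet in which lipids supplied 45% of the energy. The DIO group stayed on this diet. In the DIO + DHA group, a fish oil concentrate rich in the n-3 fatty acid DHA (683.4 mg per g) took the place of 15% by weight of the dietary lipids. The concentrate also held smaller amounts of EPA and other n-3 fatty acids, so the diets do not differ in DHA alone. It contained tocopherols, and the same amount was added to the diet of the DIO group. Livers were taken after an overnight fast, so the comparison shows the RNA of fasted animals at the end of a long treatment. No lean or young mice are part of the comparison, and neither iron nor hepcidin protein was measured in these libraries.

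Hepatocytes release the peptide hormone hepcidin, which binds ferroportin and leads to its removal from cells, so that less iron enters the plasma. Hepatocytes read iron through the BMP and SMAD pathway with its co-receptor hemojuvelin, and inflammation through IL-6 and STAT3, and both routes act on the Hamp promoter. Plasma iron travels on transferrin, cells store it in ferritin, and haptoglobin and hemopexin bind free haemoglobin and free haem before these can do harm. Hepcidin, haptoglobin, hemopexin and ferritin are also known as acute-phase products of the liver, while transferrin is known as a negative acute-phase protein in humans.

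The promoters of the hepcidin genes are shown because the RNA of these neighbours on chromosome 7 moved in opposite directions. Hamp lies at chr7:30641793-30643457 (GRCm39, minus strand, 3 exons) and Hamp2 at chr7:30621797-30624106 (minus strand, 4 exons). The sequences are the 250 bases before the start site in RefSeq, read 5′ to 3′ on the minus strand of GRCm39, chr7:30643455-30643704 for Hamp and chr7:30623607-30623856 for Hamp2. Capitals mark GGCGCC, the core of the BMP-responsive element, and TTCNNNGAA, the STAT pattern.
Hamp: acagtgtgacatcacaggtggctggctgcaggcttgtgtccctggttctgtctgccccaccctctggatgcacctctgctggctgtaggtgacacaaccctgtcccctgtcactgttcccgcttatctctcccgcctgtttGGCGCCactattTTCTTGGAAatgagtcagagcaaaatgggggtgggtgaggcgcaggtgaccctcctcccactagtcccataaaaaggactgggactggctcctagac
Hamp2: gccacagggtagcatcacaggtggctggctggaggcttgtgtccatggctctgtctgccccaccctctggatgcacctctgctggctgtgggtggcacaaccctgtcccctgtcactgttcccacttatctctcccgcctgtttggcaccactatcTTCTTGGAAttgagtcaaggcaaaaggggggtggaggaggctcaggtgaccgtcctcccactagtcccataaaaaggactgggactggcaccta
In the Hamp window, GGCGCC stood at -109 to -104 from the start site and TTCTTGGAA at -97 to -89. In the Hamp2 window, TTCTTGGAA stood at -94 to -86. The bases aligned with GGCGCC read GGCACC there, a difference of G4A with positions counted from 1 at the 5′ end of the motif. Over the 253 columns of the alignment, 227 bases were identical (89.7%). Among all 32851 RefSeq promoter windows of 300 bases, 11.9% held GGCGCC and 8.3% held TTCNNNGAA on either strand, so neither pattern is rare, and a match is a description and not a binding site. The table held windows for 7 of the 10 genes. Among the other members GGCGCC was found in 1 of 2 windows of Tfrc (at -89), and the antioxidant-type pattern TGACNNNGC, present in 12.4% of windows, in that of Hpx (at -95).

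Of the 10 genes, 4 carry iron-responsive elements, hairpins with the loop CAGTGN that iron regulatory proteins bind when iron is scarce. In the 5′ UTR of ferritin and ferroportin mRNA this is known to block translation, and in the 3′ UTR of Tfrc mRNA to protect the transcript from decay. The elements are shown because they separate the members whose mRNA level can follow iron through these proteins (Tfrc) from those in which mainly translation does (Fth1, Ftl1, Slc40a1). The search was for C, 5 bases, CAGTG followed by A, C or T, and 5 bases that pair with the first 5, with G to T pairs allowed. It found 4 sites in the Tfrc 3′ UTR and 1 each in the 5′ UTR of Fth1, Ftl1 and Slc40a1, and none in the UTRs of the other 6 members. The sites are given with the loop in capitals.
Fth1, chr19:9960096-9960125, plus strand: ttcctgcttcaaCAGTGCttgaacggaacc
Ftl1, chr7:45109202-45109231, minus strand: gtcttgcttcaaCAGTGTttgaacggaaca
Slc40a1, chr1:45964624-45964653, minus strand: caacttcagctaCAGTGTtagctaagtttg
Tfrc, chr16:32450037-32450066, plus strand: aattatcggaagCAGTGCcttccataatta
Tfrc, chr16:32450416-32450445, plus strand: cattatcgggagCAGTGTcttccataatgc
Tfrc, chr16:32450481-32450510, plus strand: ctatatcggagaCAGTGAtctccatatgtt
Tfrc, chr16:32450528-32450557, plus strand: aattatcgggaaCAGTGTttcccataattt
Of the coding genes with an annotated UTR, 0.172% held such a site in the 5′ UTR (36 of 20937) and 0.591% in the 3′ UTR (124 of 20973).

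The libraries held 1723800 to 5690347 counts, and DIO replicate 1 was the shallowest. Levels are given as counts per 1000000 counts (CPM) after TMM normalization. They are not divided by gene length. The part of a gene on which reads can be counted differs between genes, so levels are compared between libraries and not between genes. The 14 hepatocyte markers summed to 104291 to 110993 CPM in the DIO group and 110581 to 129967 CPM in the DIO + DHA group, so the defining genes of liver tissue were present. Other marker lists moved with the diet. Summed Kupffer cell and macrophage markers were 876 to 978 CPM in the DIO group and 507 to 540 CPM in the DIO + DHA group. Of 13 tested markers, edgeR called 10 lower (76.9%, against 7.28% of all genes) and 1 higher (7.69%, against 7.89%). The marker called higher was Marco (0.66, edgeR adjusted p = 0.000109), while Timd4 and Cd163 did not pass. The sums of T, NK and B cell markers were 132 to 147 and 48.6 to 54.5 CPM. Sinusoidal endothelial markers summed to 244 to 275 and 181 to 207 CPM, with 3 of 10 called lower (30%, against 7.28% of all genes) and 7 not called. Skeletal muscle markers ran the other way, from 37.1 to 41.5 CPM to 1454 to 1562 CPM, and squamous epithelium markers from 154 to 168 CPM to 260 to 287 CPM. Most of the latter sum was Perp (152 to 166 and 182 to 199 CPM), while Krtdap went from 0.532 to 0.563 CPM to 24.5 to 31.8 CPM and Krt13 from 0 in each DIO library to 13.3 to 18.6 CPM. Red blood cell markers, among them globins, summed to 1715 to 1821 and 1521 to 1803 CPM, with overlapping groups, 0 of 6 tested markers called by edgeR (1 at an unadjusted p under 0.05, 0 by limma-voom) and Rhag at 0 in every library. Single markers are named here after their values were seen. The part of these lists in the results on iron and haem genes was not tested. In bulk RNA, fewer cells of a type and less RNA per cell cannot be told apart.

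Between the groups 5 of the 10 genes passed the test: Hamp was higher in the DIO + DHA group, and Hamp2, Trf, Hp and Hpx were lower. The other 5 (Tfr2, Tfrc, Fth1, Ftl1 and Slc40a1) did not pass. Genes were tested by the quasi-likelihood method of edgeR, with p-values adjusted after Benjamini and Hochberg over all 12412 genes, and an adjusted p under 0.05 called 15.2% of all genes, 7.89% as higher and 7.28% as lower. The 3 and 5 libraries did not overlap for Hamp (higher) and for Hamp2, Trf, Hp, Hpx and Slc40a1 (lower), against 9.54% and 8.88% of all genes. The limma-voom test of the study's methods (log-odds B above 0) called the same number, 1 member higher and 4 lower, against 6.93% of all genes, 3.73% higher and 3.2% lower. An adjusted p under 0.05 with a log2 fold change above 1 in size was reached by 2 members, Hamp and Hpx, against 4.48% of all genes. The median log2 fold change of the 10 genes was -0.30, beside 0.00108 over all genes tested.

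**Figure D1:**
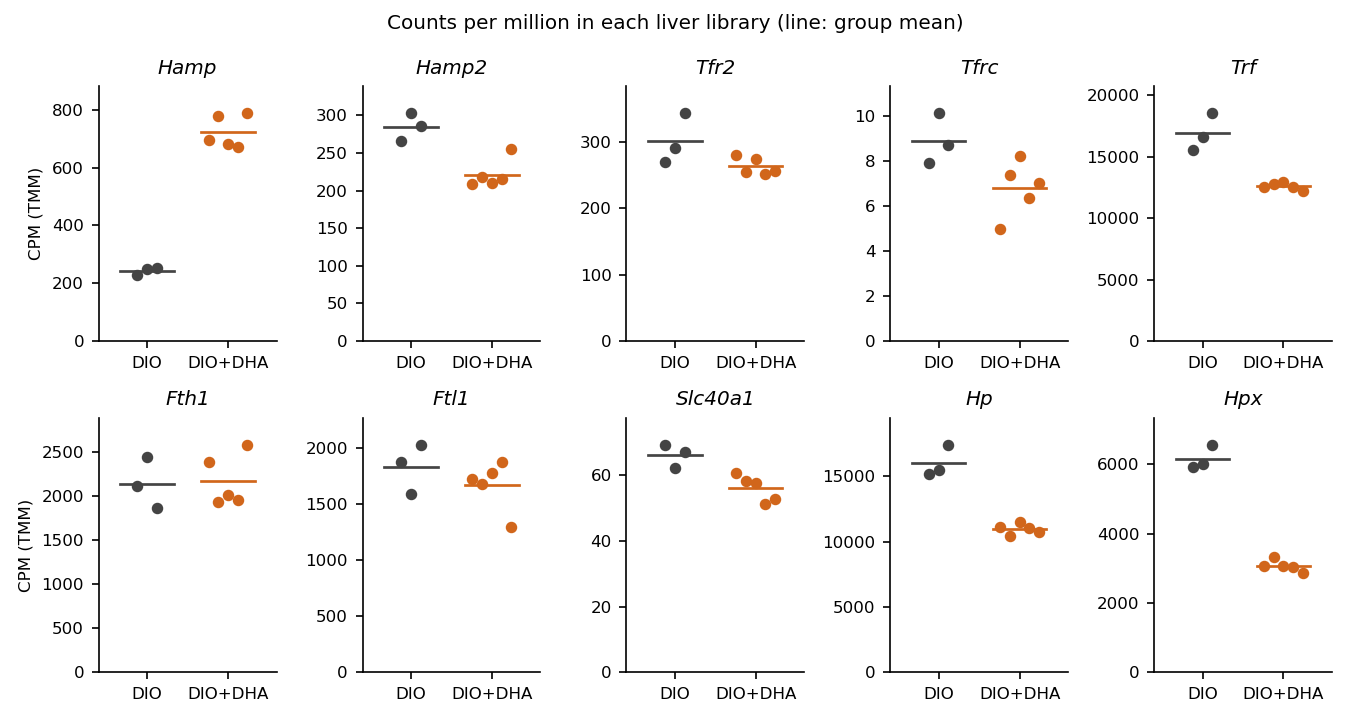
CPM after TMM normalization of each of the 10 genes in each library (points) with the group mean (line), for 3 DIO libraries (grey) and 5 DIO+DHA libraries (orange), with a linear axis from 0 in every panel. The 5 DIO+DHA libraries lie at 672 to 788 CPM for Hamp, above the DIO libraries, and below them for Hamp2, Trf, Hp, Hpx and Slc40a1.

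**Figure D2:**
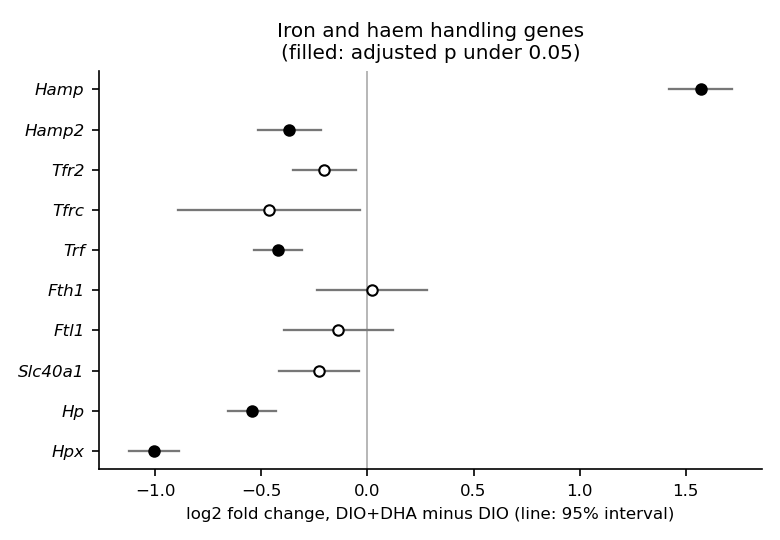
Log2 fold change of each gene (DIO+DHA minus DIO, points) with its 95% interval (line), filled where the adjusted p was under 0.05. Hamp stands at 1.57 and the other called genes lie between -1.004 and -0.37, while the interval of Fth1 and that of Ftl1 cross 0.

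Hamp, which encodes the iron-regulatory hormone hepcidin, was about 3 times as abundant in the DIO + DHA group. Its level was 227, 248 and 252 CPM in DIO replicates 1, 4 and 5, and 694, 777, 681, 672 and 788 CPM in DIO + DHA replicates 1, 2, 4, 5 and 6. Every library of the supplemented group lay above every DIO library, and the spread within either group was small beside the gap. Means were 242 ± 13.7 CPM (SD, n = 3) and 722 ± 55.4 CPM (SD, n = 5). The log2 fold change was 1.57 with a standard error of 0.07, a 2.97-fold higher level (edgeR adjusted p = 2.46e-25), and it stayed between 1.49 and 1.61 in the 16 alternative analyses. The counts behind these values ran from 403 to 3607.

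Hamp2 encodes hepcidin-2, a close paralog present in mice that is not known to act on ferroportin as hepcidin-1 does. Its RNA fell. The level was 266, 303 and 286 CPM in the DIO libraries and 209, 218, 211, 215 and 255 CPM in the DIO + DHA libraries, in the order given for Hamp. The groups came close but did not overlap, since DIO + DHA replicate 6 (255 CPM) lay just under DIO replicate 1. Hamp2 changed by -0.37 on the log2 scale, with a standard error of 0.07 and an edgeR adjusted p of 0.000131, with means of 285 ± 18.6 CPM (SD, n = 3) and 221 ± 19.03 CPM (SD, n = 5).

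Because both genes are read in the same library, their ratio does not depend on scaling between libraries. Hamp2 took 53.9%, 55.0% and 53.1% of the counts of the pair in the DIO libraries and 23.2%, 21.9%, 23.6%, 24.2% and 24.4% in the DIO + DHA libraries. The share was lower in every DIO + DHA library than in any DIO library. The cDNA was enriched for 3′ ends, so counts need not scale with exon length (410 bases for Hamp and 583 for Hamp2). The part of each gene on which reads can be counted differs, as given below. The share is therefore compared between libraries and does not give the relative amounts of the transcripts. The widest 95% Wilson interval, that of DIO replicate 1 with 472 Hamp2 and 403 Hamp counts, ran from 50.6% to 57.2%. The group means of 54.0% ± 0.935 (SD, n = 3) and 23.5% ± 1.02 (SD, n = 5) differed by -30.6 percentage points, with an exact two-sided permutation p of 0.0179, the smallest that the 56 splits of 8 libraries allow. There were 0.851 ± 0.0320 Hamp counts for each Hamp2 count in the DIO group and 3.27 ± 0.192 in the DIO + DHA group. The coding parts of the transcripts are 93.7% identical, but the counting took unique alignments only, and 8 of the 192 windows of 80 bases on Hamp exons (4.17%) occurred elsewhere in the genome, as did 8 of 286 on Hamp2 exons. On Hamp2, 15.3% of the exon bases also overlap an antisense gene, Gm44662, listed at 0 in all 8 libraries, and reads in such a stretch were left out by the counting.

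**Figure D3:**
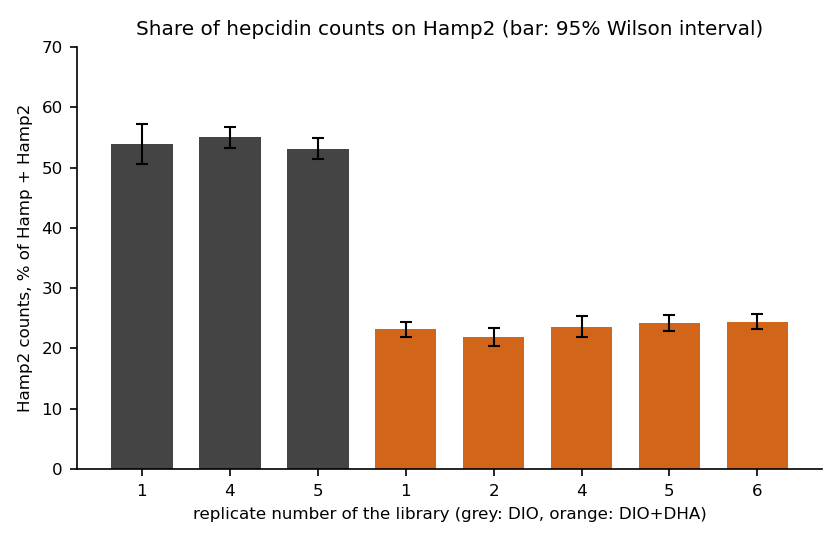
Share of the counts of Hamp and Hamp2 together that fell on Hamp2, in percent, in each library (bars, labelled by replicate number, grey for DIO and orange for DIO+DHA), with 95% Wilson intervals for counting error. The 3 DIO libraries stand at 53.1% to 55.0% and the 5 DIO+DHA libraries at 21.9% to 24.4%.

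Tfr2, the transferrin receptor of hepatocytes that takes part in sensing plasma iron, missed the threshold narrowly. Its level was 271, 290 and 343 CPM in the DIO group and 281, 255, 274, 252 and 256 CPM in the DIO + DHA group. The groups overlapped, with DIO replicate 5 high and DIO replicate 1 inside the range of the supplemented mice. The log2 fold change was -0.20 (95% interval -0.35 to -0.06, edgeR adjusted p = 0.0510). It passed with library size as the only scaling (adjusted p = 0.0178) and without DIO replicate 1 (0.0163) or DIO + DHA replicates 1 (0.0490) or 4 (0.0491), each left out singly, and moved to -0.09 without DIO replicate 5 (edgeR adjusted p = 0.613).

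Tfrc, the receptor by which most cells take up transferrin iron, was sparsely counted in these livers. The values were 7.88, 10.1 and 8.69 CPM in the DIO libraries and 4.96, 7.37, 8.21, 6.32 and 6.99 CPM in the DIO + DHA libraries. DIO + DHA replicate 4 lay above DIO replicate 1, so the groups overlapped. With 14 to 56 counts per library, a log2 fold change of -0.46 had a 95% interval from -0.89 to -0.04 and an edgeR adjusted p of 0.151. In the search above, Tfrc was the only member with iron-responsive elements in its 3′ UTR.

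Trf, the iron carrier of plasma made by hepatocytes, fell. The DIO libraries held 15573, 16622 and 18548 CPM and the DIO + DHA libraries 12545, 12806, 12956, 12583 and 12227 CPM. All 5 supplemented mice lay within a narrow band below the DIO mice, with a coefficient of variation of 2.20% against 8.92% in the DIO group. Trf changed by -0.42 on the log2 scale with a standard error of 0.06, a level 0.746 times that of the DIO group (edgeR adjusted p = 3.24e-08).

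The ferritin chains, which together form the shell that stores iron, did not pass the test. Fth1, the heavy chain with ferroxidase activity, was at 2117, 2448 and 1874 CPM in the DIO group and 2395, 1937, 2022, 1956 and 2587 CPM in the DIO + DHA group. Ftl1, the light chain, was at 1881, 1596 and 2030 CPM and at 1722, 1681, 1775, 1872 and 1298 CPM. Both genes overlapped broadly between the groups. The log2 fold change was 0.02 for Fth1 (95% interval -0.24 to 0.28, edgeR adjusted p = 0.936) and -0.14 for Ftl1 (-0.39 to 0.12, edgeR adjusted p = 0.535). Within a library the chains ran against each other: the 2 libraries highest in Fth1, DIO + DHA replicate 6 and DIO replicate 4, were the lowest in Ftl1. The log2 ratio of Ftl1 to Fth1 counts averaged -0.22 ± 0.37 (SD, n = 3) and -0.39 ± 0.37 (SD, n = 5), with an exact two-sided permutation p of 0.571, and the sign of the difference between the groups turned without DIO replicate 5 (0.01, exact permutation p = 1). Counting is less certain for these genes. On Ftl1 exons 35.1% of windows of 80 bases occurred elsewhere in the genome and 34.6% of the bases overlap other genes, and on Fth1 exons 18.7% overlap an antisense gene. Since their iron-responsive elements act on translation, mRNA values do not show ferritin protein.

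Slc40a1, the gene for ferroportin, was at 69.2, 62.2 and 66.9 CPM in the DIO libraries and 60.5, 58.3, 57.4, 51.3 and 52.8 CPM in the DIO + DHA libraries. Every DIO + DHA value lay below every DIO value, by a margin of less than 1 SD of either group. The log2 fold change was -0.23 (95% interval -0.42 to -0.04) with an edgeR adjusted p of 0.0986, and the gene did not pass under any of the 16 alternatives (adjusted p from 0.0689 to 0.307). Macrophages, which export iron from old red cells, are rich in ferroportin, and the summed macrophage markers were lower in the DIO + DHA group, at the values given above.

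Hp and Hpx, the plasma scavengers of free haemoglobin and of free haem, both fell, Hpx the more. Hp was at 15150, 15487 and 17391 CPM in the DIO libraries and 11122, 10425, 11530, 11067 and 10743 CPM in the DIO + DHA libraries. Hpx was at 5915, 6028 and 6568 CPM and at 3065, 3336, 3064, 3040 and 2880 CPM. Neither gene overlapped between the groups, and DIO replicate 5 was the highest library for both. Hp changed by -0.54 on the log2 scale (standard error 0.06, a level 0.686 times that of the DIO group, edgeR adjusted p = 1.90e-11). Hpx changed by -1.004 (standard error 0.06, 0.499 times, edgeR adjusted p = 4.82e-21).

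Since Trf and Hp are plentiful, the 10 genes took a visible share of the libraries. They held 4.28%, 4.33% and 4.69% of all counts in the DIO group and 3.18%, 3.18%, 3.21%, 3.20% and 2.99% in the DIO + DHA group. Each 95% Wilson interval for counting error was narrow, the widest from 4.25% to 4.31% in DIO replicate 1. The means, 4.43% ± 0.226 (SD, n = 3) and 3.15% ± 0.0933 (SD, n = 5), differed by -1.28 percentage points (exact two-sided permutation p = 0.0179, the smallest possible). Over the 8 libraries, which share the difference between the diets, the plasma proteins ran together. Trf and Hp had a Pearson r of 0.982 of log2 CPM, Trf and Hpx 0.972 and Hp and Hpx 0.971, as a description over 8 libraries. Hamp ran against them, with r of -0.933 with Trf, -0.968 with Hp and -0.980 with Hpx. With each group centred on its own mean, Hamp had r of 0.266 with Trf, -0.152 with Hp and 0.275 with Hpx. Centred in this way, r was 0.808 for Trf and Hp, 0.738 for Trf and Hpx and 0.303 for Hp and Hpx.

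Around the hepcidin genes, 34 of 37 listed genes of hepcidin control were tested, and 5 were called higher (14.7%, against 7.89% of all genes) and 3 lower (8.82%, against 7.28%). Called higher were Id1, Atoh8, Id3, Hjv and Acvr2a, and called lower were Stat3, Il6ra and Hnf4a, while the other 26 did not pass. Id1, a direct target of BMP signalling, was at 12.4, 14.8 and 14.6 CPM in the DIO group and 42.8, 33.5, 38.2, 30.7 and 36.3 CPM in the DIO + DHA group (log2 fold change 1.35, standard error 0.14, edgeR adjusted p = 1.76e-11). Atoh8, a transcription factor that responds to BMP signals and acts on Hamp, was at 8.44, 10.8 and 9.94 CPM and at 25.2, 26.1, 33.5, 22.2 and 24.7 CPM (1.37, standard error 0.16, edgeR adjusted p = 1.04e-09). For both genes all 5 supplemented mice lay at more than 2 times the DIO mean.

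Id3, a further target, rose by 0.42, the BMP co-receptor gene Hjv by 0.32 and the type II receptor gene Acvr2a by 0.96, with edgeR adjusted p-values of 0.00133, 0.00235 and 0.0140. Under limma-voom, the test of the study's methods, Hjv did not reach B above 0 (limma-voom adjusted p = 0.00443). That test called 3 genes of the list higher, among them Id1 and Atoh8, so Id3 and Acvr2a did not both pass it. Acvr2a rests on low levels, 2.48 to 3.97 CPM and 4.15 to 7.71 CPM, and Id3 and Acvr2a were named after their values were seen. The feedback inhibitor Smad7 was at 5.86 to 10.7 CPM and 7.34 to 13.1 CPM and did not pass (0.55, edgeR adjusted p = 0.0885). It passed without DIO replicate 1 or DIO + DHA replicate 1, with a log2 fold change of 0.71 and 0.66. Hfe, which works with the transferrin receptors, changed by -0.29 (edgeR adjusted p = 0.0770) and passed without DIO + DHA replicate 1 (-0.36) or 4 (-0.35). Tmprss6, the protease that cleaves hemojuvelin, changed by -0.15 (edgeR adjusted p = 0.185). The ligand gene Bmp6, made mainly by endothelial cells, had at most 6 counts in a library and was not tested.

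Stat3, the transcription factor that IL-6 signals through, was at 112, 101 and 112 CPM in the DIO group and 61.1, 70.7, 66.7, 71.0 and 55.3 CPM in the DIO + DHA group (log2 fold change -0.74, standard error 0.09, edgeR adjusted p = 2.16e-09). Il6ra, the IL-6 receptor gene, fell from 86.1, 99.4 and 85.5 CPM to between 52.4 and 65.8 CPM (-0.65, edgeR adjusted p = 1.70e-07). Neither gene overlapped between the groups. Socs3, the feedback inhibitor of this route, was sparse at 3.17 to 6.31 CPM over all libraries and did not pass (-0.49, edgeR adjusted p = 0.248). Il6 itself and Erfe, the erythroid hormone that lowers hepcidin, were listed at 0 in all 8 libraries, which allows up to 0.0914 CPM over the libraries together for counting error alone. Hnf4a, a master transcription factor of hepatocytes, fell from 233 to 254 CPM to 156 to 178 CPM (-0.53, edgeR adjusted p = 7.12e-08). The median over the 34 genes was -0.05, with 14 estimates above 0 and 20 below.

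**Figure D4:**
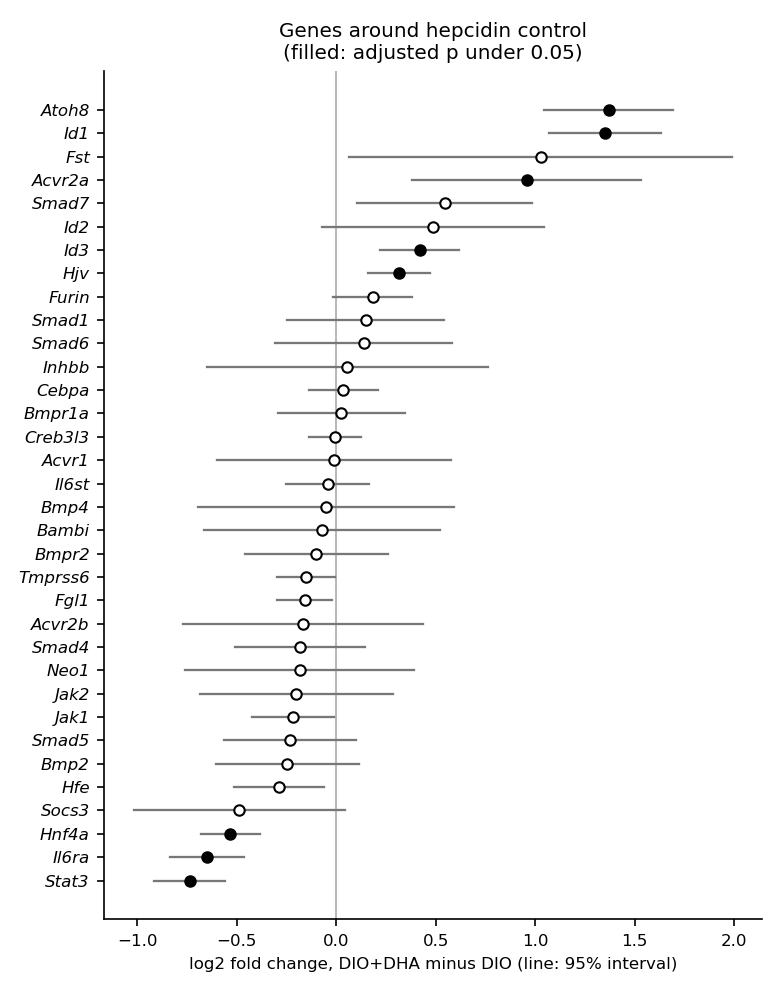
Log2 fold change (DIO+DHA minus DIO, points) with 95% interval (line) of the 34 tested genes of hepcidin control, sorted by size and filled where the adjusted p was under 0.05. Atoh8 (1.37) and Id1 (1.35) stand at the top, and Stat3 (-0.74), Il6ra (-0.65) and Hnf4a (-0.53) at the bottom among the filled points.

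Among 25 tested genes of iron transport and sensing, 3 were called higher (12%, against 7.89% of all genes) and 5 lower (20%, against 7.28%). The median was -0.04. Steap4, a metalloreductase that responds to inflammation, was at 141, 141 and 129 CPM in the DIO libraries and 43.4, 42.2, 49.6, 37.2 and 35.4 CPM in the DIO + DHA libraries (-1.73, standard error 0.09, edgeR adjusted p = 8.86e-23). Slc39a14 encodes ZIP14, by which hepatocytes take up iron not bound to transferrin. It was at 142, 136 and 138 CPM and at 73.0, 70.7, 68.1, 70.7 and 72.9 CPM (-0.95, edgeR adjusted p = 1.39e-14). Both genes were clear of overlap, and Slc39a14 varied little within either group. Slc11a1, an iron transporter of macrophage phagosomes, fell by 1.11 on the log2 scale from 5.23 to 6.75 CPM to 1.34 to 3.71 CPM (edgeR adjusted p = 0.00418), beside the lower sum of macrophage markers. It did not reach B above 0 under limma-voom (limma-voom adjusted p = 0.00502).

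Weaker falls were seen for Slc11a2, the iron importer DMT1 (-0.49, edgeR adjusted p = 0.0129), and Cp, the ferroxidase ceruloplasmin (-0.18, edgeR adjusted p = 0.0411). Neither reached B above 0 under limma-voom (limma-voom adjusted p = 0.0130 for Slc11a2 and 0.0236 for Cp). Slc11a2 was not called by DESeq2 (adjusted p = 0.0664), nor Cp with no filter on low counts (edgeR adjusted p = 0.117). Slc11a2 also no longer passed without DIO replicate 4 (-0.47) or 5 (-0.44) or DIO + DHA replicate 6 (-0.38), nor Cp without any single DIO library (-0.17 to -0.18) or without DIO + DHA replicate 1 (-0.18) or 4 (-0.18). Skp1, a ubiquitin ligase subunit that serves iron sensing among many other tasks, rose by 0.32 (edgeR adjusted p = 0.000768), from 201 to 208 CPM to 248 to 265 CPM. The other genes called higher, named here after their values were seen, were the metalloreductase gene Steap2 (0.88, edgeR adjusted p = 0.0327) and Cisd1 (0.21, edgeR adjusted p = 0.0359), which encodes an iron-sulfur protein of the outer mitochondrial membrane. DESeq2 and limma-voom (B above 0) called only Skp1 higher in this list. The iron regulatory protein genes Aco1 (-0.04) and Ireb2 (-0.02) did not pass, nor did the ferritin autophagy receptor gene Ncoa4 (0.37) and the reductase gene Steap3 (0.51).

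Of 14 tested genes of haem synthesis, 1 was called higher (7.14%, against 7.89% of all genes) and 1 lower (7.14%, against 7.28%). These shares are close to those of all genes, and the median was 0.01. Alas1, the rate-limiting enzyme of haem synthesis in hepatocytes, was at 712, 718 and 711 CPM in the DIO libraries and 351, 300, 309, 393 and 309 CPM in the DIO + DHA libraries. The DIO libraries were nearly alike and all 5 others lay far below them. Alas1 changed by -1.10 on the log2 scale (standard error 0.07, edgeR adjusted p = 7.08e-19). Clpx, a mitochondrial unfoldase known to act on ALAS1, rose from 73.7, 86.0 and 77.7 CPM to between 135 and 168 CPM (0.93, edgeR adjusted p = 5.87e-13). Fech, which inserts iron in the last step, stood at 107 to 122 CPM and 107 to 127 CPM (0.03, 95% interval -0.14 to 0.19, edgeR adjusted p = 0.889). Tmem14c (-0.16) and Pgrmc1 (0.09) did not pass either.

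Of 18 tested genes of haem breakdown and transport, 2 were called higher (11.1%, against 7.89% of all genes) and 6 lower (33.3%, against 7.28%). The median was -0.15. Hmox1, the haem-degrading oxygenase, fell from 8.44, 10.8 and 11.7 CPM to 4.56, 3.02, 4.99, 5.39 and 4.59 CPM (-1.23, standard error 0.22, edgeR adjusted p = 2.05e-05). Kupffer cells are known for high Hmox1, and macrophage markers were lower in the same libraries. Ambp, the precursor of the haem-binding plasma protein alpha-1-microglobulin, fell from 3238 to 3496 CPM to 2229 to 2627 CPM (-0.46, edgeR adjusted p = 1.60e-08). Lrp1, the receptor that clears haem with hemopexin, changed by -0.40 (edgeR adjusted p = 0.00438) although its groups overlapped at 95.3 to 126 CPM and 69.2 to 100.2 CPM. It did not reach B above 0 under limma-voom (limma-voom adjusted p = 0.00616). The other genes called lower, named after their values were seen, were the haem-sensing repressor gene Bach1 (-0.49) and the organic anion transporter genes Abcc2 (-0.25) and Slco1b2 (-0.18). Abcg2, an exporter of porphyrins among other substrates, rose by 0.65 (edgeR adjusted p = 0.000768), and the lysosomal haem exporter gene Slc48a1 by 0.29 (edgeR adjusted p = 0.0492). The groups overlapped for Slc48a1. In this list, limma-voom (B above 0) called only Hmox1 and Ambp lower and only Abcg2 higher. The haptoglobin-haemoglobin receptor gene Cd163 (-0.27, edgeR adjusted p = 0.622) and Blvrb (-0.09, edgeR adjusted p = 0.446) did not pass.

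In iron-sulfur cluster assembly, 1 of 23 tested genes was called higher and 0 lower by edgeR (5 at an unadjusted p under 0.05 in either direction, 0 called lower by DESeq2 or limma-voom). The share called higher was 4.35%, against 7.89% of all genes, and 7.28% of all genes were called lower. Bola3, a mitochondrial assembly factor, stood at 98.5, 102 and 91.7 CPM in the DIO group and 110 to 133 CPM in the DIO + DHA group (0.28, edgeR adjusted p = 0.0161). It no longer passed without DIO replicate 5 (0.24) or DIO + DHA replicate 6 (0.22). Glrx5 (0.18), Hspa9 (0.16), Iscu (-0.12) and Fdxr (-0.43) did not pass, except that Glrx5 did so without DIO + DHA replicate 2 (0.21). The median was 0.14. The list of other acute-phase products, of which none is a member, held 0 genes called higher by edgeR, DESeq2 or limma-voom and 18 of 20 called lower by edgeR, the same number as had an unadjusted p under 0.05, with a median of -0.65. The share called lower was 90%, against 7.28% of all genes. Saa1 changed by -2.01, Orm2 by -1.94, Saa2 by -1.88 and Saa4 by -1.49, and the serum amyloid A genes are near copies between which reads can be hard to place. Hp and Hpx thus moved in the direction of most of that list, Trf moved in it too, and Hamp moved against it.

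**Figure D5:**
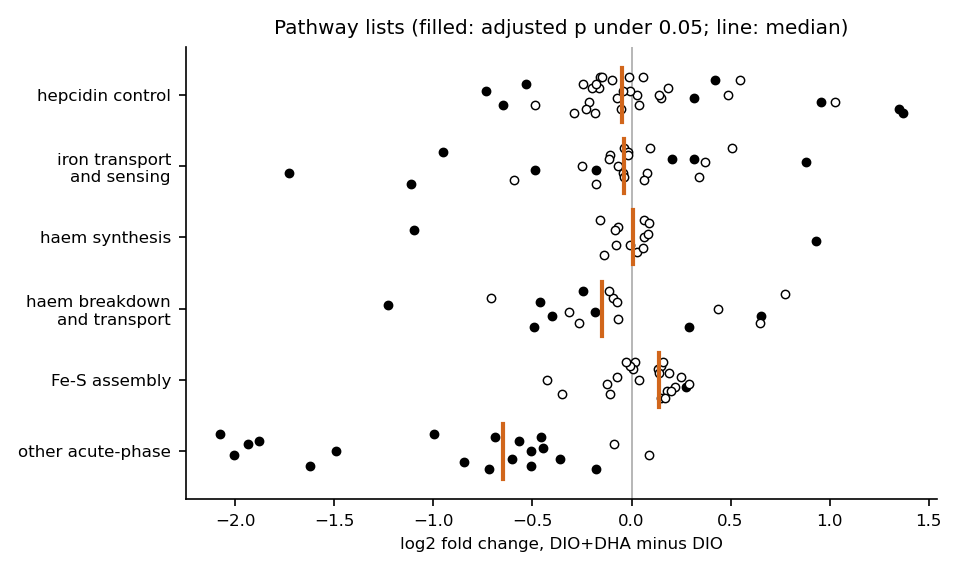
Log2 fold change (DIO+DHA minus DIO) of every tested gene of 6 lists around the members (points, filled where the adjusted p was under 0.05, spread vertically only for legibility), with the median of each list as an orange line. The medians lie between -0.15 and 0.14 except that of the other acute-phase genes, at -0.65.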

How the data were processed

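Liver libraries of 3 DIO and 5 DIO + DHA mice were grouped by their sample titles, and the labels put all in batch 1. The authors made 3′-enriched cDNA with molecular identifiers, aligned reads to GRCm39 with STAR 2.7.9a after FastQC 0.11.8 and trimmomatic, and counted them by featureCounts 1.6.0 on exons of GENCODE mouse release 33. The values deposited are raw read counts per gene, 1 table per library. Counting was unstranded, with unique alignments and without reads shared by overlapping genes. Whether identifiers were collapsed is not stated, so intervals and floors (3 counts) cover counting error only.

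Release 39 named 56323 of 56884 genes. Genes were tested unless, in each group, over 50% of libraries had fewer than 5 counts. TMM and edgeR 4.0.16 (R 4.3.3, quasi-likelihood test, robust) were used, with Benjamini-Hochberg adjustment over 12412 genes. Differences are DIO + DHA minus DIO. Single values had exact two-sided permutation tests. The fit was tested on simulated data. Alternatives used DESeq2 1.42.0 (size factors and Wald test), limma 3.58.1 (voom, B above 0, prior proportion 0.01), other scalings and filters, the replicate number, and each library left out.

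The members and lists were chosen with earlier results of these data known. Of 260 list genes 258 were matched. Named are the members, the 4 genes of each pathway list with the smallest p and a fixed set of known regulators, of which 1 is not reported here. Likeness to Hamp was ranked by Pearson r of log2 CPM (prior count 2) among genes of at least 10 CPM. Marker lists are given as sums. Promoters came from RefSeq (GRCm39) and UTRs from GENCODE release 39. Within each group, libraries differed beyond counting noise, with chi-square per degree of freedom from 1.93 to 5.20, so none was taken as a duplicate. Iron, protein and serum measurements were not analysed here.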

Additional observations from a re-analysis of the deposited data

Results flagged for a closer look

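Of 54 values of the members, their sums and the named genes that were checked in the 5 DIO + DHA libraries, 2 had a library that stood apart from the other 4, by a gap that took more than 0.71 of the group's range. Chance flags about 1 in 20 groups. The DIO group, with 3 libraries, was not checked. Both concern DIO + DHA replicate 6.

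Hamp2 was at 254.85 CPM in DIO + DHA replicate 6 and at 209 to 218 CPM in the other 4 libraries, a gap of 0.816 of the range. The library still lay below the lowest DIO library, and without it Hamp2 changed by -0.43 in place of -0.37 on the log2 scale. The same library was the highest of its group in Hamp, at 788 CPM, and Hamp2 took 24.4% of the counts of the pair there, close to the others.

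The 10 genes together took 2.99% of all counts in DIO + DHA replicate 6 (2.98797%) and 3.18% to 3.21% in the other 4 libraries, a gap of 0.887 of the range. This library had the lowest Trf, Hpx and Ftl1 and the highest Fth1 of its group.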

How the results depend on the processing

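Over the 16 alternatives the 5 called genes kept direction and call in all 80 values, and Hamp remained the member called higher. Of 80 values for the other 5 members, 76 stayed on the same side of the threshold and 4, all of Tfr2, passed. For other named genes 625 of 651 values kept their side, 21 lost the call and 5 gained it. Over all genes, limma-voom called 463 higher and 397 lower (edgeR 979 and 904) and DESeq2 716 higher and 601 lower. The largest shift of the median by scaling was -0.0178, with library size only, which gave 904 higher and 961 lower. A minimum of 10 counts in every library gave 665 and 751. The limma-voom calls rest on B above 0 and the others on an adjusted p under 0.05, which are unlike thresholds. Slc11a1, Lrp1, Bola3, Hjv, Slc11a2 and Cp missed B above 0 with a limma-voom adjusted p under 0.05. How much of the differences comes from this or from other causes was not tested.

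List counts moved as follows. Hepcidin control: 3 higher by limma-voom (5 by edgeR). Iron transport and sensing: 1 higher (against 3) by DESeq2, by limma-voom and with no filter, and 2 lower (against 5) by limma-voom. With each library left out it ranged from 1 to 3 higher, with 1 without DIO replicate 1 or 5 or DIO + DHA replicate 2, and from 3 to 5 lower, with 3 without DIO replicate 4 or 5. Haem breakdown and transport: 1 higher (against 2) with library size only, by DESeq2, by limma-voom and with no filter, and 2 lower (against 6) by limma-voom. With each library left out it ranged from 1 to 2 higher, with 1 without DIO replicate 1 or 4 or DIO + DHA replicate 1, 2, 4 or 5, and from 3 to 6 lower, with 3 without DIO replicate 5 or DIO + DHA replicate 1. Iron-sulfur assembly: 0 higher by limma-voom, and 0 to 2 with a library left out, with 0 without DIO replicate 5 or DIO + DHA replicate 6, and 2 when DIO + DHA replicate 2 was left out. The Ftl1 to Fth1 difference turned from -0.16 to 0.00877 without DIO replicate 5 and reached -0.36 without DIO replicate 4.

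The replicate numbers 1, 4 and 5 occur in both groups but on different mice, and same-numbered libraries did not deviate together (correlations -0.0133, -0.0135 and -0.0111). With the replicate number as a block, edgeR called 817 higher and 721 lower genes, the members' 1 higher and 4 lower, 1 higher and 4 lower genes of iron transport and sensing, 3 and 4 of haem breakdown and transport, 5 and 4 of hepcidin control and 0 higher of iron-sulfur assembly. Among named genes, Slc11a2 (-0.39), Cp (-0.19) and Bola3 (0.22) did not pass under it.

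Bmp6 had at most 6 counts in a library and was not tested, and Il6, Erfe and Rhag were at 0 in every library. Tfrc had 14 to 56 counts, and other genes with counts as low were called, so whether depth accounts for its missed call was not tested. DIO replicate 1 had the lowest total, 1723800 counts.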

Other observations

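The genes whose levels ran most like Hamp over the 8 libraries, among 6223 with at least 10 CPM, were Igfbp2 (Pearson r 0.996 of log2 CPM), Cyp2c40 (0.996), Insig2 (0.995), Cryab (0.995) and Slc25a4 (0.995). They share the difference between the diets, and all were higher in the DIO + DHA group, by 1.38, 0.73, 1.24, 2.14 and 2.98 on the log2 scale. Skeletal muscle markers were also higher in that group, at the sums given in the results, and the part of muscle RNA in this ranking was not tested. With each group centred on its own mean, the closest were Gm5436 (0.988), Tfg (0.955), Selenow (0.941), Ppia (0.935) and Ndufa8 (0.935), which differed between the groups by -0.05 to 0.16. No gene is in both lists. Whether genes that followed Hamp within a group also followed it between diets was not tested. Both lists are descriptions over 8 libraries.

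Centred in the same way, the members paired differently from the comparison of diets. Hamp and Hamp2, which moved apart between the diets (r -0.832 over 8 libraries), ran together within the groups (0.756). Tfr2 ran with Hp (0.880) and with Trf (0.865), and Trf with Hp (0.808). Ftl1 ran against Fth1 (-0.840) and against Hamp2 (-0.857). These values rest on 8 libraries with a common depth and total per library.

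Relative to the annotation used for counting, release 39 extends the transcripts of Tfr2 by 600 bases past the 3′ end and those of Hamp by 27 bases. Exon bases, wherever added, went from 410 to 890 for Hamp and from 4336 to 4951 for Tfr2. They went from 3320 to 5693 for Trf and from 6185 to 7069 for Tfrc. The counts given here hold no reads from these stretches, in either group.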
